A study of Mus musculus with 17 samples.

Results

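The genes of the LIF, JAK and STAT3 pathway were followed in R1 mouse embryonic stem cells, wild-type or *Usb1* knockout, during treatment with retinoic acid (RA), a signal that drives these cells out of self-renewal. They were taken by symbol and are 10 of the 54532 genes listed: the receptor subunits *Lifr* and *Il6st*, the kinase gene *Jak1*, the transcription factor gene *Stat3*, the feedback inhibitors *Socs3* and *Socs2*, and the responsive genes *Junb*, *Pim1*, *Pim3* and *Bcl3*. RNA was sequenced at day 0 (no RA, self-renewal culture), day 1 and day 3. Wild-type cells at day 0 had 2 replicates, and the other 5 combinations of genotype and day had 3 each, 17 libraries in all. USB1 is an exonuclease that trims the 3′ end of U6 snRNA, a small RNA of the spliceosome. The knockout was made with CRISPR/Cas9 and its libraries come from 1 line, KO-1, so the knockout and other properties of that line cannot be told apart. Whether LIF remained in the medium during RA treatment is not given in the sources used here.

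Leukemia inhibitory factor (LIF) is the cytokine that keeps mouse embryonic stem cells self-renewing in serum culture. It joins its receptor LIFR to the shared signal transducer gp130, the product of *Il6st*. JAK1 bound to the receptor chains then phosphorylates STAT3, which enters the nucleus and activates its targets, among them *Socs3*, whose product binds gp130 and JAK and shuts the signal down. RNA levels report only the transcript side of this pathway, and phosphorylated STAT3 was not measured.

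Values are TPM, a share of transcripts on a fixed library total, which the authors calculated from gene length and read count, so levels of different genes can be set side by side. Reads on genes, recovered from TPM and exon length, ranged from 15404379 to 17300186 per library, and all 10 genes passed the filter of at least 1 TPM in at least 2 libraries. The fewest reads behind any of their values were 59, for *Socs2* in a wild-type library at day 3. Wild-type replicate 1 at day 0 stood apart, with 17090 genes above 0 against 22314 in wild-type replicate 2. The correlation of log2(TPM + 1) between these libraries was 0.934, whereas the median correlation of each other library with its replicates was 0.969 to 0.978. Wild-type values at day 0 of the 10 genes are therefore given for both replicates, while those of some other genes are given as group means. Calls of 2-fold for named genes that end when 1 of these replicates is left out are given with the value without it.

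*Usb1* itself was at 40.0 and 37.1 TPM in wild-type cells at day 0 and at 15.5, 15.2 and 17.9 TPM in the knockout, and wild-type and knockout values did not overlap at any day, the direction the labels give. The cells carried the markers of their labelled type at day 0. The 6 embryonic stem cell markers *Pou5f1*, *Nanog*, *Sox2*, *Esrrb*, *Zfp42* and *Dppa5a* summed to 8603 and 8609 TPM in wild-type cells and to between 8508 and 9374 TPM in the knockout, with *Dppa5a* the most abundant.

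Most of the 10 genes fell under RA. Between day 0 and day 1, 7 of the 10 genes fell in wild-type cells (*Lifr*, *Stat3*, *Socs3*, *Socs2*, *Junb*, *Pim3* and *Bcl3*) and none rose, with a median log2 change of -1.45. Of all genes tested, 3.88% fell, and their median change was 0.17. In *Usb1* knockout cells 7 of 10 fell (median -1.41), against 2.87% of all genes (median 0.02). Between day 0 and day 3, 7 of 10 fell in wild-type cells (median -1.32), against 9.68% of all genes, and 6 of 10 in the knockout (median -1.49), against 8.04%. A gene was counted when limma, fitted to log2(TPM + 1) across all 21871 genes tested, gave a Benjamini-Hochberg adjusted p under 0.05 and the change was at least 2-fold. The day 1 and day 3 comparisons use the same day 0 libraries. The samples are bulk cultures, so fewer cells of a type and less RNA per cell cannot be told apart.

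From day 1 to day 3 the genes parted. In wild-type cells *Lifr* and *Junb* rose and *Socs2* and *Pim1* fell, 4 of 10, against 15.2% of all genes called in either direction. In the knockout *Lifr*, *Il6st*, *Socs3* and *Junb* rose and *Socs2* and *Pim1* fell, 6 of 10, against 15.3%. This comparison does not use the day 0 libraries.

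**Figure D1:**
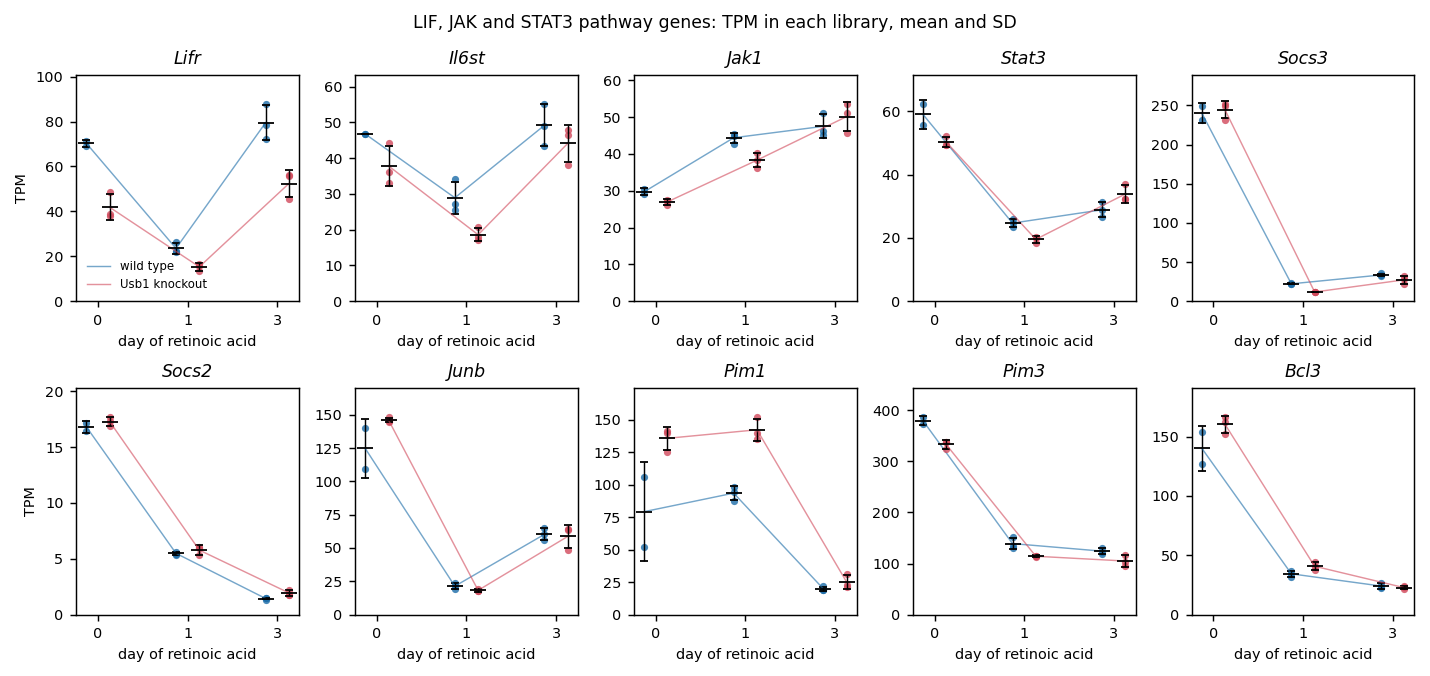
TPM (vertical axes, from 0) of the 10 genes at day 0, day 1 and day 3 of RA. Each point is 1 library, with wild type in blue and *Usb1* knockout in red, horizontal bars are group means and vertical bars the SD. *Lifr* dips at day 1 and returns at day 3, *Socs3*, *Pim3* and *Bcl3* stay below day 0 from day 1 on, *Socs2* falls at both steps, and *Pim1* is lowest at day 3, with wild-type libraries spread from 52.4 to 106.2 TPM at day 0.

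*Lifr* (ENSMUSG00000054263, chr15:7090614-7197489 on the plus strand of GRCm38), the LIF-specific receptor subunit, dipped and came back. Wild-type libraries held 71.4 and 69.2 TPM at day 0, then 26.3, 22.1 and 22.2 TPM at day 1, and 78.3, 72.5 and 87.8 TPM at day 3. Every day 1 library lay below every day 0 library, and every day 3 library lay above both. The fall to day 1 was 2.99-fold in mean TPM (log2 change -1.54 ± 0.13 SE, adjusted p = 5.1e-07, limma), and the rise from day 1 to day 3 was 3.38-fold (log2 change 1.71 ± 0.12 SE, adjusted p = 2.1e-08). At day 3 the log2 difference from day 0 was 0.17 (95% interval -0.11 to 0.45, adjusted p = 0.30). Knockout libraries held 48.5, 38.1 and 38.9 TPM at day 0, 15.7, 16.7 and 13.5 TPM at day 1, and 45.3, 55.7 and 56.2 TPM at day 3. They followed the same course at a lower level, with a 2.73-fold fall to day 1 and a 3.43-fold rise to day 3. Their log2 difference between day 3 and day 0 was 0.32 (95% interval 0.07 to 0.57, adjusted p = 0.033), under 2-fold.

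*Il6st* (ENSMUSG00000021756, chr13:112464070-112510086, plus strand), which encodes gp130, moved less. In wild-type cells it was at 46.7 and 46.9 TPM at day 0, 34.1, 27.1 and 25.7 TPM at day 1, and 49.1, 43.4 and 55.1 TPM at day 3. The log2 change to day 1 was -0.68 ± 0.15 SE (adjusted p = 0.0020), short of 2-fold. In the knockout it was at 44.2, 33.2 and 36.2 TPM, then 20.6, 18.0 and 17.1 TPM, then 38.2, 47.8 and 46.5 TPM. Its log2 change to day 1 of -0.98 ± 0.13 SE (adjusted p = 5.7e-05, limma) lay just under the 2-fold line, and the rise to day 3 of 1.20 ± 0.13 SE (adjusted p = 2.9e-06) passed it. The receptor subunits varied together, with a Pearson r of 0.97 between *Lifr* and *Il6st* over the 17 libraries, the highest of the 45 pairs of the 10 genes. These libraries share group means, so this is a description.

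*Jak1* (ENSMUSG00000028530, chr4:101152367-101265282, minus strand), the kinase held at the receptor, was the 1 gene of the 10 with a positive log2 change at an adjusted p under 0.05 at both days in both genotypes, always under 2-fold. Wild-type libraries held 30.4 and 29.0 TPM at day 0, 44.8, 42.8 and 45.5 TPM at day 1, and 46.2, 45.1 and 51.2 TPM at day 3. Knockout libraries held 27.5, 27.3 and 26.1 TPM, then 38.3, 40.3 and 36.3 TPM, then 45.8, 51.1 and 53.5 TPM. All day 1 and day 3 libraries lay above all day 0 libraries of the same genotype. The log2 changes from day 0 to day 3 were 0.66 ± 0.08 SE in wild-type cells (adjusted p = 4.1e-06, limma) and 0.87 ± 0.07 SE in the knockout (adjusted p = 6.0e-08).

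*Stat3* (ENSMUSG00000004040, chr11:100885098-100939540, minus strand), the transcription factor at the end of the cascade, fell by day 1 in both genotypes. In wild-type cells it was at 55.8 and 62.3 TPM at day 0, 26.0, 23.4 and 24.6 TPM at day 1, and 28.7, 26.6 and 31.4 TPM at day 3. The log2 changes from day 0 were -1.22 ± 0.09 SE at day 1 (adjusted p = 9.3e-08, limma) and -1.01 ± 0.09 SE at day 3 (adjusted p = 1.9e-07). The day 3 value sits at the 2-fold line. Without wild-type replicate 2 at day 0 it was -0.93, and without wild-type replicate 2 at day 3 it was -0.95. In the knockout *Stat3* was at 49.4, 49.4 and 52.1 TPM, then 20.3, 20.0 and 18.4 TPM, then 32.2, 37.2 and 32.3 TPM. Its log2 change from day 0 to day 3 in the knockout was -0.56 ± 0.08 SE (adjusted p = 2.6e-05), under 2-fold.

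*Socs3* (ENSMUSG00000053113, chr11:117966079-117970047, minus strand), the feedback inhibitor that STAT3 induces, fell the most by day 1 of the 10 genes in both genotypes. Wild-type libraries held 231.2 and 249.5 TPM at day 0, 22.7, 22.1 and 21.9 TPM at day 1, and 32.9, 35.5 and 32.3 TPM at day 3. Knockout libraries held 249.2, 231.9 and 251.7 TPM at day 0, 12.2, 11.7 and 11.5 TPM at day 1, and 22.3, 31.7 and 28.0 TPM at day 3. The genotypes overlapped at day 0 and were apart at day 1, where each knockout library was below each wild-type library. The fall to day 1 was 10.8-fold in wild-type cells (log2 change -3.38 ± 0.10 SE, adjusted p = 2.0e-11, limma) and 20.7-fold in the knockout (log2 change -4.26 ± 0.09 SE, adjusted p = 5.9e-13). By day 3 *Socs3* had risen from its day 1 level in the knockout (log2 change 1.13 ± 0.09 SE, adjusted p = 1.6e-07), and the wild-type change was 0.57 ± 0.09 SE (adjusted p = 1.5e-04), under 2-fold.

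STAT factors bind as dimers to palindromic sites of the form TTCNNNGAA, and the promoter of *Socs3* is shown because it was the 1 promoter among the 10 genes with these letters. The search covered both strands of the 300 bases from 250 before to 50 after each RefSeq start (GRCm38.p6), and 9 of the 10 genes had such a window, *Socs2* having no entry. The stretch around the match, at chr11:117969462-117969570 on the minus strand, is printed 5′ to 3′ with the match in capitals:

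Socs3: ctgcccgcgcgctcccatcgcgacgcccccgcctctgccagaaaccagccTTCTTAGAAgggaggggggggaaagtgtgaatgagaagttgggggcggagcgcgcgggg

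The match begins 154 bases before the RefSeq start of this window. Both lie inside the *Socs3* span given above, downstream of the start of that span. Of all genes with a window, 9.55% hold a match, so a match in 1 of these genes is near that share, and a match is a run of letters, not a measured binding site. No window of the 9 genes held TGANTCA, the AP-1 motif (8.97% of genes), or AGGTCA repeated in the same direction after 5 other bases, a form bound by retinoic acid receptors (0.0111% of genes).

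*Socs2* (ENSMUSG00000020027, chr10:95385362-95417180, minus strand), another inhibitor of cytokine receptors, fell at each step and had the lowest level of the 10 genes in every group. Wild-type libraries held 16.5 and 17.2 TPM at day 0, 5.37, 5.44 and 5.64 TPM at day 1, and 1.34, 1.46 and 1.51 TPM at day 3. Knockout libraries held 17.7, 17.3 and 16.9 TPM, then 5.96, 5.30 and 6.06 TPM, then 2.24, 1.79 and 1.79 TPM. No library of a later day reached a library of an earlier day. By day 3 mean TPM was 11.7-fold below day 0 in wild-type cells (log2 change -2.87 ± 0.12 SE, adjusted p = 6.1e-11, limma) and 8.92-fold below in the knockout (log2 change -2.64 ± 0.11 SE, adjusted p = 3.8e-11). At these low levels the log2(TPM + 1) scale understates the fall.

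*Junb* (ENSMUSG00000052837, chr8:84974484-84978718, minus strand), an immediate-early gene of the AP-1 family, dipped sharply and came partly back. Wild-type libraries held 109.3 and 140.2 TPM at day 0, 18.8, 23.7 and 21.3 TPM at day 1, and 64.6, 60.3 and 55.7 TPM at day 3. Knockout libraries held 145.4, 148.0 and 144.8 TPM, then 19.4, 17.5 and 17.5 TPM, then 64.0, 63.5 and 48.5 TPM. The fall to day 1 was 5.86-fold in wild-type cells and 8.04-fold in the knockout, and the rise from day 1 to day 3 was 2.83-fold and 3.23-fold. At day 3 *Junb* stayed below day 0, by a log2 change of -1.03 ± 0.13 SE in wild-type cells (adjusted p = 8.6e-06, limma) and -1.31 ± 0.12 SE in the knockout (adjusted p = 1.9e-07). The wild-type value at day 3 sits at the 2-fold line and was -0.85 without wild-type replicate 2 at day 0, and -0.98 without wild-type replicate 3 at day 3.

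*Bcl3* (ENSMUSG00000053175, chr7:19808462-19822770, minus strand), an atypical IκB protein that acts in the nucleus, fell by day 1 and was lowest at day 3. Wild-type libraries held 126.9 and 153.5 TPM at day 0, 36.5, 34.6 and 31.9 TPM at day 1, and 26.5, 23.2 and 22.3 TPM at day 3. Knockout libraries held 162.5, 152.1 and 166.1 TPM, then 39.8, 44.6 and 37.7 TPM, then 21.2, 23.8 and 22.9 TPM. From day 0 to day 3 it fell 5.84-fold in wild-type cells (log2 change -2.49 ± 0.10 SE, adjusted p = 4.5e-11, limma) and 7.08-fold in the knockout (log2 change -2.77 ± 0.09 SE, adjusted p = 3.8e-12).

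The PIM kinases, serine/threonine kinases that promote survival, took different courses. *Pim3* (ENSMUSG00000035828, chr15:88862186-88865726, plus strand) held 373.7 and 386.4 TPM in wild-type libraries at day 0, 130.7, 151.3 and 135.2 TPM at day 1, and 130.6, 122.6 and 119.4 TPM at day 3. It fell by day 1 (log2 change -1.45 ± 0.08 SE, adjusted p = 4.8e-09, limma), and the change from day 1 to day 3 was -0.16 (95% interval -0.31 to -0.01, adjusted p = 0.081). Knockout libraries held 323.8, 339 and 337 TPM, then 111.9, 115.5 and 115.3 TPM, then 102.8, 116.9 and 94.9 TPM, a log2 change to day 1 of -1.54 ± 0.07 SE (adjusted p = 1.1e-09).

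*Pim1* (ENSMUSG00000024014, chr17:29490753-29496112, plus strand) did not fall by day 1. Wild-type libraries held 52.4 and 106.2 TPM at day 0, 94.6, 87.6 and 98.7 TPM at day 1, and 18.6, 21.7 and 19.3 TPM at day 3. The wild-type replicates at day 0 differed more from each other than the 3 libraries at day 1 or at day 3 did. The log2 change to day 1 was 0.32 ± 0.22 SE (adjusted p = 0.27, limma), and it was -0.18 (adjusted p = 0.46) without wild-type replicate 1 and 0.82 (adjusted p = 0.0015) without wild-type replicate 2. From day 1 to day 3 *Pim1* fell 4.71-fold in wild-type cells (log2 change -2.18 ± 0.19 SE, adjusted p = 3.2e-07). Knockout libraries held 125.6, 141.8 and 140.1 TPM at day 0, 140.2, 152.0 and 135.1 TPM at day 1, and 21.3, 31.5 and 22.5 TPM at day 3. The day 0 and day 1 libraries overlapped, and the later fall was 5.68-fold (log2 change -2.48 ± 0.19 SE, adjusted p = 8.3e-08).

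**Figure D2:**
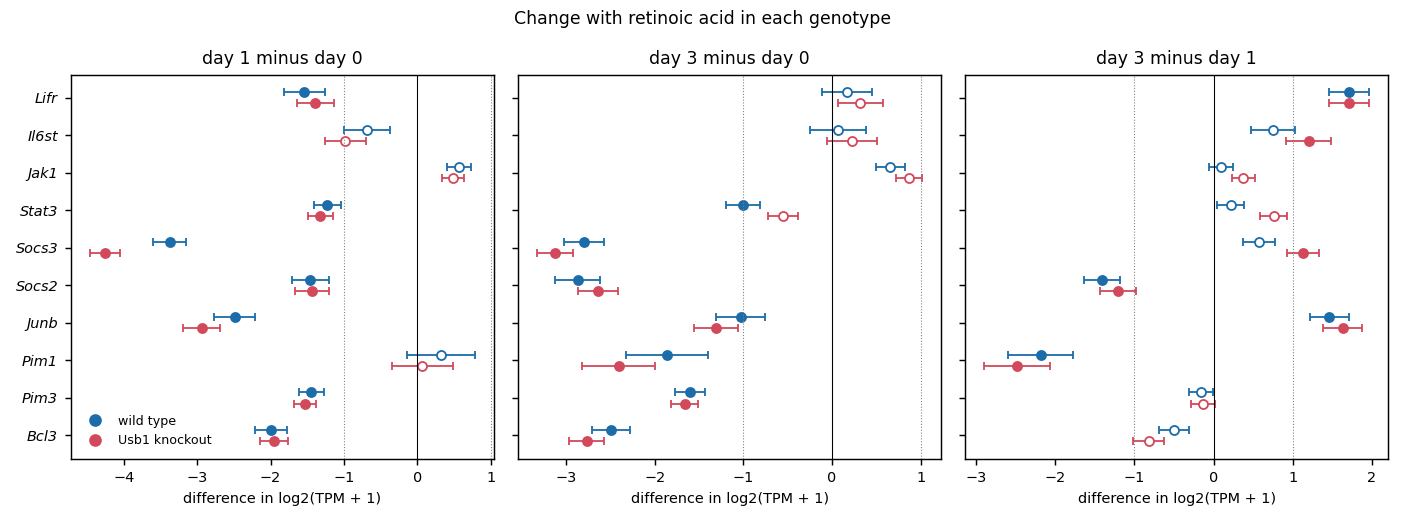
Log2 change of the 10 genes (horizontal axes, log2(TPM + 1) scale) for day 1 against day 0, day 3 against day 0 and day 3 against day 1, with wild type in blue and *Usb1* knockout in red. Points are limma estimates, bars are 95% intervals, filled points passed the adjusted p and the 2-fold minimum, and dotted lines mark 2-fold. *Socs3* at day 1 is the farthest below 0, at -3.38 in wild type and -4.26 in the knockout.

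The 10 genes were set in order of mean TPM. In wild-type cells at day 0 it ran from *Pim3* (380.0) through *Socs3* (240.4), *Bcl3* (140.2), *Junb* (124.7), *Pim1* (79.3), *Lifr* (70.3), *Stat3* (59.1), *Il6st* (46.8) and *Jak1* (29.7) to *Socs2* (16.8). *Bcl3* and *Junb*, and *Pim1* and *Lifr*, overlapped as neighbours in this order. At day 1 *Pim3* (139.0) and *Pim1* (93.6) led, and the libraries of *Bcl3*, *Il6st*, *Stat3*, *Lifr*, *Socs3* and *Junb* overlapped from neighbour to neighbour, with means of 34.3 down to 21.3 TPM. At day 3 *Lifr* (79.5) followed *Pim3* (124.2), and *Il6st* (49.2) and *Jak1* (47.5) overlapped. In the knockout *Pim1* (142.4) stood above *Pim3* (114.2) at day 1, the reverse of the wild-type order, and neither order had an overlap between these genes.

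No gene of the 10 passed both thresholds between knockout and wild-type cells at any day. At day 0 this was 0 of 10 against 3.05% of all genes, at day 1 0 of 10 against 2.22%, and at day 3 0 of 10 against 1.29%. The share of all genes at day 0 depended on which wild-type library of that day was kept. An unadjusted p under 0.05 was given to 4, 8 and 5 of the 10 genes at these days. No share of all genes was counted at that threshold, so these counts are not read as a result. The alternative fit voom, limma's fit on the recovered reads, called 0 of the 10 at each day, against 1281, 663 and 422 of 21861 genes tested. With the adjusted p alone and no minimum of change, limma counted 2 of 10 at day 0 (*Lifr* lower, *Pim1* higher) against 11.9% of all genes. At day 1 the count was 6 of 10 (*Lifr*, *Il6st*, *Stat3*, *Socs3* and *Pim3* lower, *Pim1* higher) against 17.3%, and at day 3 2 of 10 (*Lifr* and *Pim3* lower) against 7.52%. *Pim3* at day 3 (-0.25 ± 0.07 SE, adjusted p = 0.047) kept its adjusted p under 0.05 in 9 of 26 alternatives, with 0.10 under voom and 0.23 at an equal median. Differences here are knockout minus wild type on the log2(TPM + 1) scale.

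*Lifr* was lower in the knockout at each day, with no overlap of the libraries. Its log2 differences were -0.74 ± 0.13 SE at day 0 (adjusted p = 0.0028, limma), -0.59 ± 0.12 SE at day 1 (adjusted p = 0.0035) and -0.59 ± 0.12 SE at day 3 (adjusted p = 0.0061). In fits limited to the libraries of 1 day the adjusted p was 0.088 at day 0 and 0.074 at day 3. *Il6st* was lower by -0.61 ± 0.13 SE at day 1 (adjusted p = 0.0063), where its libraries did not overlap, and its adjusted p at day 0 and day 3 was 0.19 and 0.62. The 95% intervals there ran from -0.62 to 0.01 and from -0.44 to 0.13.

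*Socs3* differed at day 1 by -0.86 ± 0.09 SE (1.89-fold lower in the knockout, adjusted p = 3.0e-05, limma). At day 0 its difference was 0.02 (95% interval -0.20 to 0.25) and at day 3 -0.30 (95% interval -0.50 to -0.10, adjusted p = 0.074). The median of all genes was itself -0.13 at day 1, so the libraries of the genotypes were also brought to an equal median. *Socs3* was then at -0.65 (adjusted p = 1.4e-04), *Lifr* at -0.38 (0.0034) and *Il6st* at -0.39 (0.014), all with an adjusted p still under 0.05, and *Pim1* at 0.82 (0.010) was then the largest difference of the 10 genes, a place *Socs3* holds without this scaling. *Stat3*, at -0.32 ± 0.08 SE (adjusted p = 0.012), and *Pim3*, at -0.28 ± 0.07 SE (adjusted p = 0.014), moved to -0.11 (0.37) and -0.06 (0.74).

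*Pim1* was the higher gene in the knockout. The log2 difference at day 0 was 0.85 ± 0.22 SE (adjusted p = 0.021, limma). The adjusted p was 0.26 in the fit limited to day 0 libraries, and above 0.05 without knockout replicate 2 or replicate 3 of day 0. The log2 difference also depended on the wild-type library kept, being 0.35 without wild-type replicate 1 and 1.36 without wild-type replicate 2. At day 1, where the estimate uses no day 0 library but the spread is shared by all groups, it was 0.60 ± 0.19 SE (adjusted p = 0.046) with no overlap, and its adjusted p stayed under 0.05 in 11 of 26 alternatives (from 0.0015 to 0.12), with a log2 difference of 0.55 to 0.82. At day 3 the libraries overlapped (0.31, 95% interval -0.11 to 0.72). *Bcl3* at day 1 was at 0.24 ± 0.09 SE (adjusted p = 0.088), and 0.45 (adjusted p = 0.0021) after scaling to an equal median. *Socs2*, *Junb* and *Jak1* had adjusted p values above 0.05 at all days, with 95% intervals at day 1 of -0.17 to 0.29, -0.46 to 0.03 and -0.36 to -0.06.

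**Figure D3:**
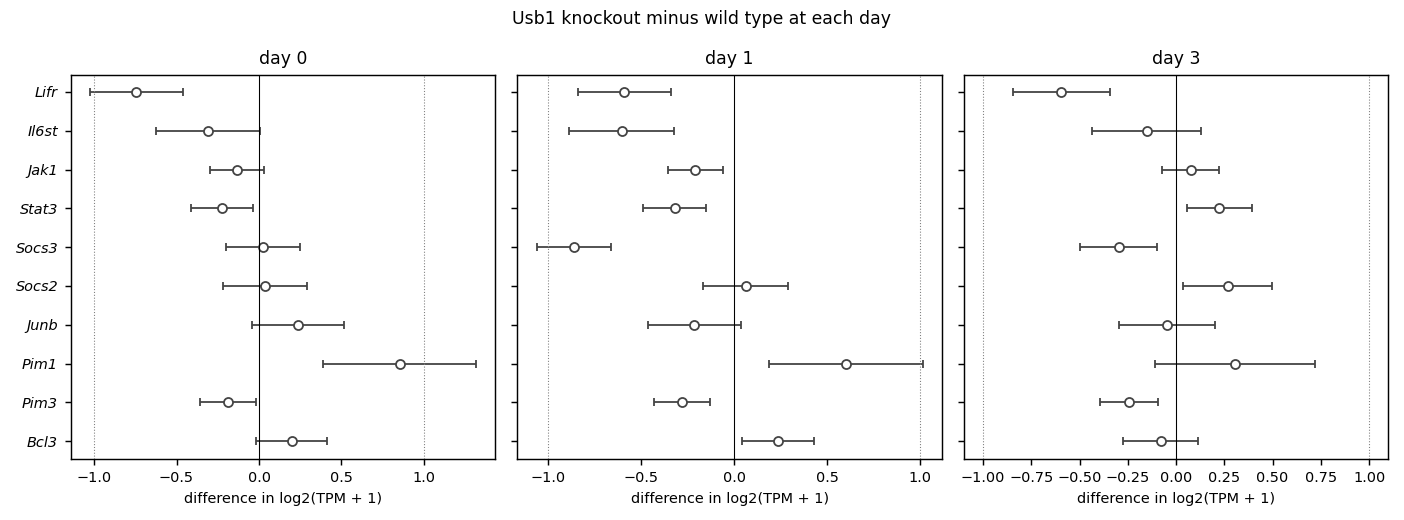
Difference between *Usb1* knockout and wild-type cells (horizontal axes, log2(TPM + 1) scale) for the 10 genes at day 0, day 1 and day 3. Points are limma estimates with 95% intervals, open where the 2 thresholds were not both passed, and dotted lines mark 2-fold. All points are open, and *Lifr* lies below 0 at all 3 days.

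The difference between the genotypes in the RA response was tested directly as an interaction. None of the 10 genes passed both thresholds in the responses from day 0 to day 1 (0.86% of all genes), day 0 to day 3 (2.42%) or day 1 to day 3 (2.25%). The shares that use day 0 depended on which wild-type library of that day was kept. Voom also called 0 of the 10 in each response, against 278, 694 and 494 of 21861 genes tested. An unadjusted p under 0.05 was given to 2, 2 and 5 of the 10, counts for which no share of all genes was counted and which are not read as a result. With the adjusted p alone limma counted 1 (against 2.23% of all genes), 1 (6.15%) and 2 (7.61%). The fall of *Socs3* to day 1 was deeper in the knockout by -0.88 ± 0.14 SE on the log2 scale (adjusted p = 0.0062, limma), and its change from day 1 to day 3 was larger by 0.56 ± 0.13 SE (adjusted p = 0.020). For *Stat3* the change to day 3 differed by 0.45 ± 0.12 SE from day 0 (adjusted p = 0.039) and by 0.54 ± 0.11 SE from day 1 (adjusted p = 0.0090). The first of these was 0.37 (adjusted p = 0.070) without wild-type replicate 2 at day 0 and 0.45 (adjusted p = 0.065) with the replicate block. The median of all genes in the day 1 to day 3 interaction was itself 0.13. At an equal median the day 1 to day 3 values were 0.37 (adjusted p = 0.086) for *Socs3* and 0.35 (0.059) for *Stat3*, and *Stat3* from day 0 to day 3 was at 0.36 (0.065), so these 3 missed the threshold, while *Socs3* from day 0 to day 1 was at -0.78 (0.0062). For *Lifr* the intervals of the difference were -0.22 to 0.53 from day 0 to day 1 and -0.36 to 0.35 from day 1 to day 3.

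The same test was read for the 41 tested genes of the wider pathway lists. By the adjusted p alone limma counted 2 of 41 from day 0 to day 1, 5 of 41 from day 0 to day 3 (4 positive) and 9 of 41 from day 1 to day 3 (8 positive). Of all genes, 2.23%, 6.15% and 7.61% were counted. At an equal median the list counts were 1, 5 and 3, and no share of all genes was counted there. The counts that use day 0 depend on its wild-type libraries. Without wild-type replicate 1 or replicate 2, *Lif* was at 0.10 or -1.96 from day 0 to day 1, and at 0.24 or -1.82 from day 0 to day 3. *Cebpd* was at 0.36 or -2.34 and at 0.061 or -2.64, and *Socs1* from day 0 to day 3 at -0.091 or 1.54. *Cntfr* from day 0 to day 3 (1.21 ± 0.14 SE, adjusted p = 2.8e-04) and *Gbx2* from day 0 to day 3 (1.20 ± 0.24 SE, adjusted p = 0.0091) and from day 1 to day 3 (1.26 ± 0.22 SE, adjusted p = 0.0034) also passed 2-fold. *Klf4* was the 1 negative gene over both spans that end at day 3, at -0.79 ± 0.11 SE from day 0 (adjusted p = 0.0012) and -0.86 ± 0.11 SE from day 1 (adjusted p = 2.3e-04), a larger net fall in the knockout from day 0. *Myc* was at 0.84 ± 0.11 SE from day 0 (adjusted p = 9.1e-04) and 0.56 ± 0.11 SE from day 1 (adjusted p = 0.0058). The interactions share libraries with each other and with the comparisons above.

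Lists of the other genes of the pathway were counted in the same way. Over all genes, 13.9% changed in either direction by day 1 in wild-type cells and 6.95% in the knockout, and 25.8% and 21.9% by day 3. Among the other kinases of the family, *Jak3* and *Jak2* moved in opposite directions. *Jak3* was the most abundant of the 4 JAK genes at day 0, at 91.8 and 121.6 TPM in the wild type, and 102.6, 96.3 and 105.4 TPM in the knockout. It fell to group means of 24.5 and 22.4 TPM at day 1 (log2 changes -2.07 ± 0.11 SE and -2.13 ± 0.10 SE, adjusted p = 6.1e-09 and 1.7e-09, limma). *Jak2*, which day 0 libraries held at 6.53 and 5.88 TPM (wild type) and at 4.09, 3.66 and 4.14 TPM (knockout), rose to 26.5, 29.2 and 32.6 TPM and to 28.1, 28.2 and 31.6 TPM at day 3. The *Jak2* log2 changes to day 3 were 2.07 ± 0.12 SE and 2.61 ± 0.11 SE (adjusted p = 1.8e-09 and 4.0e-11). *Tyk2*, the remaining JAK gene, stayed within 2-fold in these comparisons.

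Of the 7 ligands of the family 5 were tested. *Clcf1* was the 1 ligand that rose by day 1 in both genotypes (log2 changes 1.36 and 1.27, adjusted p = 1.6e-04 and 1.5e-04, limma). *Lif* itself was low, at 0.48 and 5.19 TPM in wild-type cells at day 0 and 8.40, 9.42 and 9.33 TPM at day 3. Its wild-type log2 change to day 3 of 1.73 ± 0.39 SE (adjusted p = 0.0016) was 0.70 (adjusted p = 0.0079) without wild-type replicate 1. The knockout, at 5.18, 4.33 and 4.29 TPM and then 8.41, 10.5 and 10.4 TPM, changed by 0.94 ± 0.35 SE (adjusted p = 0.035). This was under 2-fold on the log2(TPM + 1) scale, though not in mean TPM (4.60 and 9.77).

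The other receptors included the 1 pathway gene that passed both thresholds between the genotypes with all 17 libraries. This was *Cntfr*, which encodes the receptor for ciliary neurotrophic factor and works with LIFR and gp130. Wild-type libraries held 75.1 and 67.9 TPM at day 0 and knockout libraries 28.0, 24.4 and 26.1 TPM, a log2 difference of -1.42 ± 0.10 SE (adjusted p = 2.0e-06, limma). The difference was -0.79 ± 0.09 SE at day 1 (adjusted p = 6.3e-05) and -0.21 ± 0.09 SE at day 3 (adjusted p = 0.23). For other pathway genes the day 0 difference depended on the wild-type library kept. Without wild-type replicate 2 it was 1.92 for *Lif*, -1.17 for *Socs1* and 2.33 for *Cebpd*. Without wild-type replicate 1 these were -0.15, 0.46 and -0.37. Of the 4 other receptors 3 were tested, *Il11ra1* rose by day 3 in both genotypes (log2 changes 1.20 and 1.09), and *Il6ra*, at 1.46 to 2.48 TPM at day 0, fell by day 3 in both (-1.01 and -1.14, the first -0.95 without wild-type replicate 1 at day 0).

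Of 6 other STAT genes *Stat5b* rose by day 3 in both genotypes (log2 changes 1.46 and 1.11, adjusted p = 6.7e-06 and 3.4e-05, limma) and no other did. Of 13 other inhibitors *Cish*, a SOCS family member, was the 1 that fell by day 1 in both genotypes (-1.09 and -1.03). By day 3 *Pias1* rose in both (1.04 and 1.31, the first 0.83 without wild-type replicate 2 at day 0), *Pias2* fell in wild-type cells (-1.50) and *Socs5* rose in the knockout (1.28). The other genotype moved the same way without passing 2-fold. Knockout *Pias2* went from a mean of 131.1 to 72.8 TPM, and wild-type *Socs5* changed by 0.75 (adjusted p = 8.1e-05, limma). The interaction from day 0 to day 3 had an adjusted p of 0.011 for *Pias2* and 0.064 for *Socs5*. The median change of these inhibitors at day 1 was 0.18 in both genotypes, against 0.17 and 0.02 over all genes.

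Of 11 further genes known to respond to LIF or STAT3, 5 fell (*Klf4*, *Klf5*, *Tfcp2l1*, *Myc* and *Sgk1*) and 2 rose (*Ier3* and *Cebpd*) by day 1 in wild-type cells. In the knockout those 5 fell and none rose. Of all genes, 9.99% rose in wild-type cells and 4.07% in the knockout by day 1. Wild-type libraries of day 0 list *Cebpd* at 0 in replicate 1 and at 5.49 TPM in replicate 2, those of day 1 hold 5.87, 5.39 and 5.64 TPM, and the log2 change of 1.38 (adjusted p = 0.044, limma) was 0.03 without wild-type replicate 1. *Ier3* (1.06, adjusted p = 6.8e-04) was at 0.92 without wild-type replicate 2. The difference between the genotypes in these changes had an adjusted p of 0.47 for *Cebpd* and 0.37 for *Ier3* (limma). For *Cebpd* it was -0.99 with both wild-type libraries of day 0, 0.36 without replicate 1 and -2.34 without replicate 2. *Klf4*, a STAT3 target among the pluripotency factors, fell in wild-type and knockout cells (log2 changes -2.26 ± 0.08 SE and -2.19 ± 0.07 SE, adjusted p = 1.1e-10 and 6.0e-11, limma), as did *Klf5* (-1.68 and -1.84). *Tfcp2l1*, another STAT3 target of self-renewing cells, fell by day 1 (-1.65 and -1.10) and was lower still at day 3 (-3.42 and -2.97 from day 0). *Myc* fell by day 1 (-2.04 and -1.76) and then rose from day 1 to day 3 (1.28 and 1.84). *Gbx2* had the largest change of these 11 by day 3, at -5.51 ± 0.18 SE and -4.30 ± 0.16 SE (adjusted p = 4.0e-12 and 1.3e-11).

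**Figure D4:**
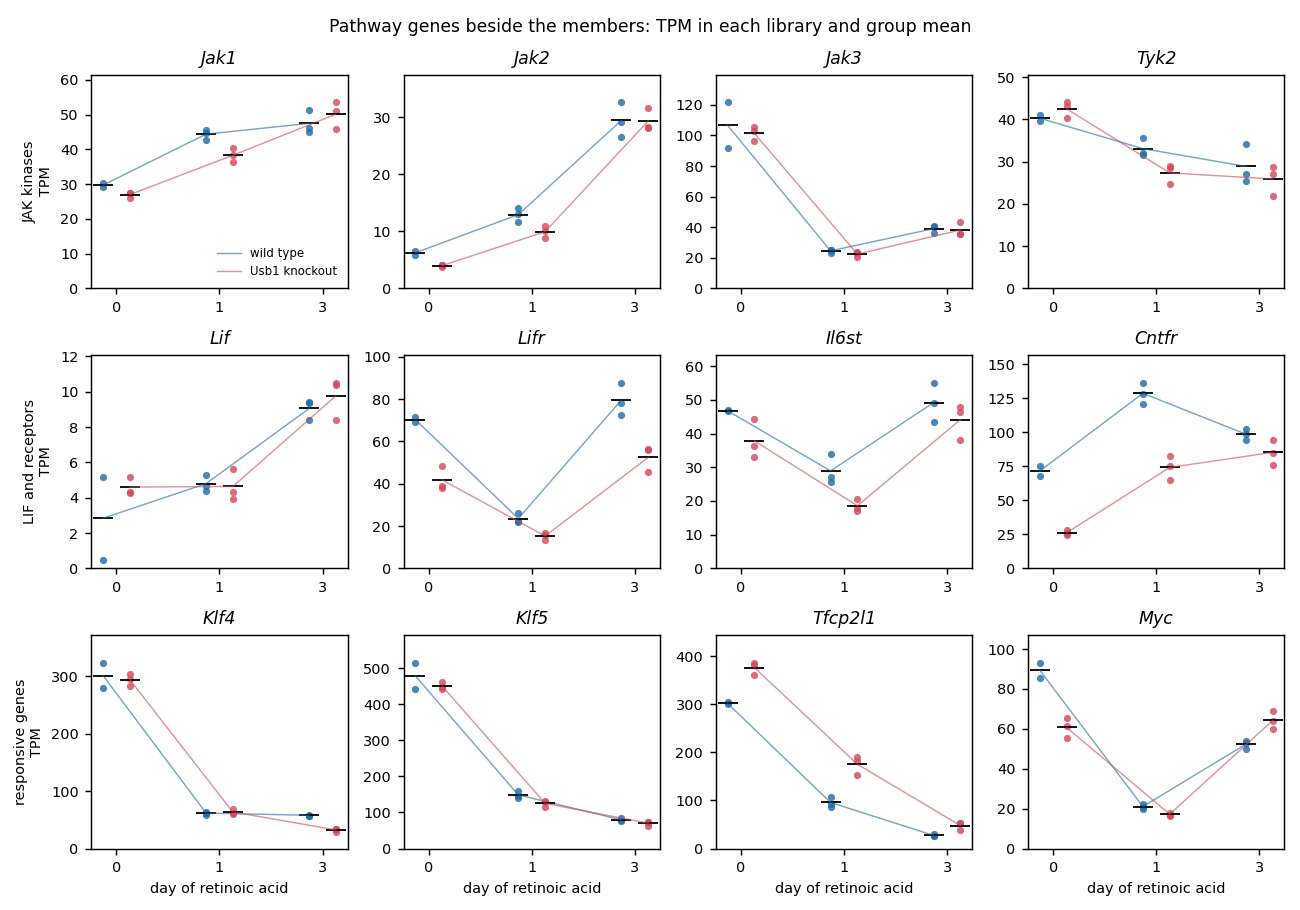
TPM (vertical axes, from 0) of the 4 JAK genes (top), of *Lif* and 3 receptor genes (middle) and of 4 responsive genes (bottom) at day 0, day 1 and day 3. Points are single libraries, black bars group means, with wild type in blue and *Usb1* knockout in red. *Jak3* and *Klf4* drop at day 1 while *Jak2* climbs to day 3, and *Cntfr* is lower in the knockout at day 0.

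The genes whose course was most like that of *Socs3*, by Pearson r of log2(TPM + 1) over the 17 libraries among 11915 genes, were *Zbtb7a* (0.981), *Jak3* (0.979), *Scarb2* (0.975), *Slc17a9* (0.972) and *Slc29a3* (0.967). Those most like *Lifr* were *Slc9a8* (0.978), *Fam129b* (0.977), *Actn4* (0.972), *Pros1* (0.972) and *Meg3* (0.972). Among the 10 genes *Stat3* followed *Socs3* (r = 0.95) and *Junb* (r = 0.93), *Bcl3* followed *Pim3* and *Socs2* (r = 0.95 each), and *Jak1* ran opposite to *Bcl3* (r = -0.97). These values describe 6 group means with their replicates and carry no test.

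The markers of other cell types moved with day and genotype. The 8 extraembryonic endoderm markers summed to 11.4 and 25.8 TPM at day 0 in the wild type, with *Sox7* the most abundant, and to between 79.2 and 81.5 TPM at day 1 and 634.5 and 668.6 TPM at day 3. In the knockout their sum ran from 9.60 to 10.9 TPM, then 20.2 to 23.2 TPM, then 304.4 to 349.9 TPM, and *Foxa2* led at day 3 in both genotypes. All 8 of these markers rose by day 3 in each genotype, and all 6 embryonic stem cell markers fell. At day 1, when *Socs3* was already at its lowest, *Zfp42* and *Esrrb* were the 2 of these 6 that had fallen in each genotype. Embryonic stem cell markers summed to between 8308 and 8799 TPM in wild-type libraries and 10370.5 and 11310.7 TPM in knockout libraries at day 1. Most of each sum was *Dppa5a*, at 5479 to 6022 TPM in wild-type libraries and 6762 to 7762 TPM in knockout libraries. At day 0 *Dppa5a* was lower, at 3825 and 3775 TPM in wild-type libraries and 3876 to 4310 TPM in knockout libraries. These sums therefore do not show the course of the other markers. *Esrrb* was higher in the knockout by a log2 difference of 1.09 at day 1 (adjusted p = 3.1e-06, limma). At day 3 the sums were 964 to 1191 TPM in wild-type libraries and 1360 to 1731 TPM in knockout libraries. *Nanog* (means of 22.6 and 87.2 TPM in wild type and knockout) and *Esrrb* (3.50 and 14.3 TPM) were then higher in the knockout by log2 differences of 1.90 and 1.76 (adjusted p = 4.3e-10 and 5.1e-08). Both also passed both thresholds in the interaction from day 0 to day 3 (1.92 and 1.59), as did *Nanog* and *Sox2* from day 1 to day 3, in the direction of the *Stat3* and *Gbx2* interactions and opposite to that of *Klf4*. The part that cell composition has in these interactions and in the differences of *Lifr*, *Il6st* and *Socs3* between the genotypes was not tested.

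Fibroblast markers, which feeder cells would bring, summed to under 10 TPM in every library at day 0 and day 1, with 4 to 6 of the 8 at 0. At day 3 the sums were 44.5 to 54.2 TPM for the wild type and 71.7 to 80.7 TPM for the knockout, led by *Col1a1*. Mesoderm markers summed to 2.46 to 4.68 TPM at day 0 and day 1, and to 81.2 to 107.5 TPM (wild type) and 133.7 to 150.1 TPM (knockout) at day 3. Neural markers summed to between 91.4 and 155.8 TPM in all libraries, while their makeup changed. By day 3 *Nes* rose from a mean of 6.58 to 87.3 TPM in wild-type cells and from 8.51 to 112 TPM in the knockout, *Tubb3* fell from 99.9 to 14.9 TPM and from 116 to 26.3 TPM, and *Sox1* fell from 9.65 to 1.56 TPM and from 13.5 to 3.42 TPM. Trophoblast markers summed to 21.1 to 38.4 TPM at day 0 and day 1 and to 96.7 to 117.0 TPM (wild type) and 158.0 to 173.1 TPM (knockout) at day 3. Of 4 blood markers only *Cd68* was above 1 TPM.

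Some of these genes share exon bases with a gene on the other strand, and the strand setting of the counting is not given in the sources used here, so reads on those bases cannot be told apart. *Junb* shares 173 bases with *Prdx2*, which was at group means of 192.9 to 338.2 TPM and did not dip at day 1 (192.9 TPM in wild-type cells at day 0, 227.4 at day 1). *Bcl3* shares 161 bases with *Gm16175*, whose mean went the same way, from 8.19 to 0.87 TPM in wild-type cells and from 17.5 to 2.73 TPM in the knockout between day 0 and day 1, and the part of these shared reads in the fall of *Bcl3* was not tested. *Pim1* shares 488 bases with *Gm26885* (up to 1.49 TPM), *Stat3* 72 bases with *Stat5a* (up to 4.36 TPM) and *Jak1* 4 bases with *Raver2* (up to 17.5 TPM).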

How the data were processed

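R1 cells of 6 groups (wild type or *Usb1* knockout at day 0, 1 and 3 of RA) gave 17 libraries, described in the study's methods as independent biological replicates. The authors deposited TPM, calculated from gene length and read count, and the submitters' processing notes name HISAT2 2.1.0, StringTie 1.3.6 and GRCm38.p6. The authors tested expression with DESeq2, which needs counts, so limma 3.58.1 (R 4.3.3) was used here on log2(TPM + 1), with the means of the 6 groups, a variance trend and Benjamini-Hochberg adjustment over the 21871 genes with at least 1 TPM in at least 2 libraries. Calls required an adjusted p under 0.05 and at least a 2-fold change. Intervals are 95% with 14 degrees of freedom. The fit was tested on simulated data.

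Reads were recovered from TPM and GENCODE M21 exon lengths, with whole numbers (within 0.01) for 95.9% to 96.7% of values above 0. The genes and lists were chosen with earlier results of these data known. The genes named are the 10 members, *Usb1*, up to 3 called genes with the largest changes of each list in each comparison, and the 5 genes most like *Socs3* and *Lifr*. Other list genes named (*Lif*, *Tyk2*, *Ier3*, *Cebpd*, genes named for an interaction, and sum or overlap partners) complete a family or a check and were added after their values were seen. Alternatives were another pseudocount, filters, scalings, thresholds and variance models, the libraries of 1 comparison alone, a replicate block, voom on recovered reads, and leaving out each library. For the other pathway genes, leaving out a wild-type library of day 0 was added after seeing the data. Tables were made with pandas 2.3.3 and numpy 2.4.6 (Python 3.11.15) and plots with matplotlib 3.10.9.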

Additional observations from a re-analysis of the deposited data

Results flagged for a closer look

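Among the 10 genes, the response to RA differed between wild-type and *Usb1* knockout cells in 4 tests by limma's interaction at an adjusted p under 0.05. *Socs3* fell further from day 0 to day 1 in the knockout, by -0.88 on the log2 scale, and this held at an adjusted p under 0.05 in all 26 alternatives that kept the call rule. The change of *Socs3* from day 1 to day 3 was larger in the knockout by 0.56, which held in 20 of the 26. Among the 26, a fit without a library of a day not compared could change the adjusted p but not the estimate. The change of *Stat3* from day 0 to day 3 differed by 0.45, which held in 13 of the 26 and not without wild-type replicate 2 at day 0 (0.37, adjusted p = 0.070) or with the replicate block (adjusted p = 0.065), and that from day 1 to day 3 by 0.54, which held in 25. At an equal median of the libraries the last 3 were at 0.37, 0.36 and 0.35, with an adjusted p above 0.05. None of these 4 reached a 2-fold difference between the genotypes. Of the other pathway genes, *Cntfr* from day 0 to day 3 (1.21) and *Gbx2* from day 0 to day 3 (1.20) and from day 1 to day 3 (1.26) passed both thresholds, and the 2 values that use day 0 did so without either wild-type library of day 0. By the adjusted p alone the interaction also held for *Cntfr* (0.63) and *Mcl1* (-0.32) from day 0 to day 1, for *Klf4* (-0.79), *Myc* (0.84) and *Pias2* (0.65) from day 0 to day 3, and from day 1 to day 3 for *Cntfr* (0.58), *Klf4* (-0.86), *Mcl1* (0.47), *Myc* (0.56), *Ptpn6* (0.49), *Sgk1* (0.58), *Socs5* (0.75) and *Socs7* (0.71). At an equal median *Mcl1* in both tests and *Cntfr*, *Myc*, *Ptpn6*, *Sgk1* and *Socs5* from day 1 to day 3 had an adjusted p above 0.05, and without wild-type replicate 1 at day 0 so did *Cntfr* from day 0 to day 1 (0.56, adjusted p = 0.14). *Nanog* and *Esrrb*, markers of the stem cells, also had positive interactions from day 0 to day 3 (1.92 and 1.59), and their part in the *Stat3* and *Gbx2* values was not tested. The day 0 wild-type group has 2 libraries, and the interactions of *Lif*, *Cebpd* and *Socs1* from day 0 depended on which of them was kept. The clone and the knockout cannot be told apart.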

How the results depend on the processing

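Of 2716 values of the 97 single-gene results covered under 28 alternatives, 2645 kept their direction and their side of the threshold. Leaving out a library outside the groups compared could not move a log2 change, and the threshold alternatives reuse the main fit. Interactions were covered only at an adjusted p under 0.05, or for *Pim1*. Part of this agreement was therefore fixed in advance, and the count is not read as a measure of robustness. With the adjusted p alone, the genes counted were 8 for wild type day 3 against day 1, 2, 6 and 2 for knockout against wild type at day 0, 1 and 3, and 1, 1 and 2 for the interactions (day 1 against 0, day 3 against 0, day 3 against 1). With 1.5-fold they were 2, 4 and 1 for the knockout and 1 for the interaction of day 1 against 0. No share of all genes was counted at 1.5-fold, or by the adjusted p alone for wild type day 3 against day 1. Those counts are therefore not read as a result. Leaving out each library gave 0 to 1 for knockout against wild type at day 0 and for the interaction of day 3 against 0, both through *Pim1* without wild-type replicate 2 at day 0 (1.36 and -1.05), 5 to 7 for wild type day 3 against day 0 and 7 to 8 for the knockout at day 1 against day 0. Values that turned sign were small and uncalled. Leaving out 1 library, *Pim1* in wild type at day 1 ran from -0.18 to 0.82 and its interaction at day 1 from -0.76 to 0.25, *Socs3* between genotypes at day 0 from -0.032 to 0.078, *Il6st* in wild type at day 3 from -0.019 to 0.15 and *Junb* between genotypes at day 3 from -0.11 to 0.083 (0.0052 without wild-type replicate 1 at day 3). The first 3 turned without wild-type replicate 1 at day 0. At an equal median *Lifr* (-0.015) and *Il6st* (-0.12) in wild type at day 3, *Pim1* (-0.011) at day 1 and *Il6st* (-0.058) at day 3 in the knockout, and *Jak1* (0.0063) and *Junb* (0.00097) between genotypes at day 1 turned, as did 5 interactions not given elsewhere, *Jak1* (0.030), *Stat3* (0.0088) and *Pim3* (0.015) for day 1 against 0 and *Junb* (-0.028) and *Pim3* (-0.16) for day 3 against 1. The causes were not tested.

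*Socs3* in the knockout from day 1 to day 3 lost the 2-fold under quantile normalization (0.95) and at an equal median (0.94), where *Il6st* in the knockout at day 1 (-1.06) and *Bcl3* from day 1 to day 3 (-1.02) passed it. *Il6st* also passed with a pseudocount of 0.1 (-1.02). With the replicate block, 6 genes fell in wild type from day 0 to day 3 (*Junb* at -0.99), and no other count at both thresholds changed. By the adjusted p alone, the block took the wild-type count from day 1 to day 3 from 8 to 7 and the interaction of day 3 against 0 from 1 to 0 (*Stat3*, adjusted p = 0.065). Libraries of the same number did not deviate together (correlations -0.13 to 0.12 over 40 pairs, against -0.12 to 0.11 over 80 other pairs), so the numbers were not taken to pair samples.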
